A study of Mus musculus with 28 samples.

Results

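Mouse tail tendon was examined by bulk RNA-sequencing for the procollagen processing proteinases and their enhancers, a set of 7 genes among the 25719 gene identifiers counted. Its members are defined by their known function, and no measured value enters the rule, although the set was chosen with earlier results known. It holds the procollagen C-proteinases Bmp1 and Tll1, the C-proteinase enhancers Pcolce and Pcolce2, and the procollagen N-proteinases Adamts2, Adamts3 and Adamts14. All 7 genes had enough counts to be tested in every comparison.

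The libraries came from homogenized tail tendon fascicles of 28 C57BL/6 mice (C57Bl6/J background in the study's reporting summary), 1 library per mouse. Fosl2 Tg mice carry the murine Fosl2 gene followed by eGFP, inserted at random into the genome under the H2Kb promoter of MHC class I, which is active in most cell types. Their controls were WT mice, non-transgenic animals of the same breeding. The early cohort (6 to 8 weeks of age) held 7 WT and 8 Fosl2 Tg mice, all male. The established cohort (older than 14 weeks) held 6 WT and 7 Fosl2 Tg mice, with 1 male in each genotype (replicate 5 of both) and females otherwise, so stage, age and sex cannot be told apart. Libraries summed to between 9645598 and 66894396 counts. Fosl2 itself, which the transgene adds to, ranged from 78.0 to 169 CPM (counts per 1000000 scaled counts of the library) in WT and from 121 to 160.0 CPM in Fosl2 Tg mice of the established cohort. Neither cohort showed a Fosl2 difference between genotypes that passed the test (log2 fold change 0.38 ± 0.15 (SE), FDR = 0.141 in the established and 0.20 ± 0.24, FDR = 0.918 in the early cohort), so the transgene could not be told from the counts of this gene.

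Fibrillar collagens are secreted as procollagens with a propeptide at each end, and both propeptides have to be cut off before the molecules assemble into fibrils. BMP1 and the tolloid-like proteinases remove the C-propeptide of types I, II and III procollagen, and PCOLCE and PCOLCE2 bind that propeptide and speed up the cleavage without being proteinases themselves. ADAMTS2, ADAMTS3 and ADAMTS14 remove the N-propeptide, and loss of ADAMTS2 causes dermatosparaxis, a disorder of fragile skin. BMP1 also trims precursors outside the fibrillar collagens, such as those of lysyl oxidase and of small proteoglycans, and ADAMTS3 is also known for the activation of the lymphatic growth factor VEGF-C. Tendon consists mainly of type I collagen, so its fibroblasts depend on this step.

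The 7 genes lie apart from each other in the genome (GRCm39), on 6 chromosomes. Pcolce (ENSMUSG00000029718) lies at chr5:137603365-137612046 and Adamts3 (ENSMUSG00000043635) at chr5:89822720-90031649, both on the minus strand. Adamts2 (ENSMUSG00000036545) lies at chr11:50492787-50698400 and Pcolce2 (ENSMUSG00000015354) at chr9:95519466-95580207, both on the plus strand. Bmp1 (ENSMUSG00000022098) lies at chr14:70711689-70758178, Tll1 (ENSMUSG00000053626) at chr8:64466142-64659305 and Adamts14 (ENSMUSG00000059901) at chr10:61032891-61109232, all on the minus strand. Pcolce shares 112 bases (2.81% of its exon bases) with exons of Fbxo24 on the same strand, and whether the counting used strand is not given in the sources used here.

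The bases just upstream of the annotated start are shown for the 3 genes that fell in established Fosl2 Tg tendon and for Pcolce2, which did not, because Fosl2 is a subunit of the AP-1 transcription factor and because Pcolce and Pcolce2 are paralogs. The sequences are the 250 bases before the start in RefSeq (GRCm38.p6, an older build than that of the counts), 5′ to 3′ on the gene's strand, with CG dinucleotides in capitals. They lie at chr5:137611405-137611654 (minus strand) for Pcolce, chr9:95637378-95637627 (plus strand) for Pcolce2, chr11:50601835-50602084 (plus strand) for Adamts2 and chr5:89883335-89883584 (minus strand) for Adamts3.
Pcolce: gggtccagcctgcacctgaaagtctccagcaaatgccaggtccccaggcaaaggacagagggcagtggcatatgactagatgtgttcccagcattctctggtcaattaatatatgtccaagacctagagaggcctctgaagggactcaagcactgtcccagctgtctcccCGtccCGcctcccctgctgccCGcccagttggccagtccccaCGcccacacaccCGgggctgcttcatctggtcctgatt
Pcolce2: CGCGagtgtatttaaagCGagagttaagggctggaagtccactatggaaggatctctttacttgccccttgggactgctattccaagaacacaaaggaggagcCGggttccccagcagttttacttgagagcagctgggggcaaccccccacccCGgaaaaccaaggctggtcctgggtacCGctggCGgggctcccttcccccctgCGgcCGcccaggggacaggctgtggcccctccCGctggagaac
Adamts2: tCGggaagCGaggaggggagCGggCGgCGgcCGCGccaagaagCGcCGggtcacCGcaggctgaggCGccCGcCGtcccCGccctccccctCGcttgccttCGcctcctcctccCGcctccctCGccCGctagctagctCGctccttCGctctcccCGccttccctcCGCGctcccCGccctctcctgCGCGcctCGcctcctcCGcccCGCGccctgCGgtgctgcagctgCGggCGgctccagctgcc
Adamts3: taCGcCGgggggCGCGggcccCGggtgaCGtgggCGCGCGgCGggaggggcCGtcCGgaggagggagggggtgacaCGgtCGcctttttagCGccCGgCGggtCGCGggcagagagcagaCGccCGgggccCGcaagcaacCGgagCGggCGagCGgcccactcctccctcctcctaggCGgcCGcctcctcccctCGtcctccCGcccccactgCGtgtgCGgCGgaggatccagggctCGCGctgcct
Adamts2 and Adamts3 begin in CG-rich sequence, with 34 and 35 CG dinucleotides in these 250 bases, as did Adamts14 with 35, against a median of 6 over 32851 windows. Pcolce had 5 and Pcolce2 and Tll1 had 10 each, so CG content did not separate the genes that fell from those that did not. The AP-1 motif TGANTCA was searched on both strands from 250 bases before to 50 after the start and was found in 0 of the 6 genes with a window, and in 7.81% of all windows. No match says only that these letters are not in this stretch.

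Levels between genes were compared as CPM per kilobase of exon, since the exons of the 7 genes add up to between 3991 and 11681 bases. In WT tendon of the established cohort, Pcolce was the highest at 197 ± 13.8 CPM per kilobase (SD, n = 6), followed by Adamts2 at 77.4 ± 14.9. Pcolce2 (26.2 ± 2.79) and Bmp1 (21.3 ± 3.29) came next, and their ranges over mice overlapped (21.1 to 28.9 and 16.4 to 26.5 CPM per kilobase). Adamts3 (8.49 ± 1.45), Adamts14 (1.57 ± 0.379) and Tll1 (0.417 ± 0.137) followed, each below the range of the gene before it. Bmp1 was the more abundant C-proteinase mRNA and Adamts2 the more abundant N-proteinase mRNA in this tendon. In established Fosl2 Tg tendon Pcolce was still the highest at 88.3 ± 34.9 CPM per kilobase (n = 7), while Adamts2 (32.5 ± 10.8) and Pcolce2 (26.5 ± 6.31) overlapped, with ranges of 16.1 to 46.8 and 18.4 to 37.9. The other known C-proteinase gene Tll2 and the meprin genes Mep1a and Mep1b, whose products can also cut procollagens, were near the detection limit. Their highest counts in any of the 28 libraries were 19, 2 and 10, and none of them was tested.

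**Figure D1:**
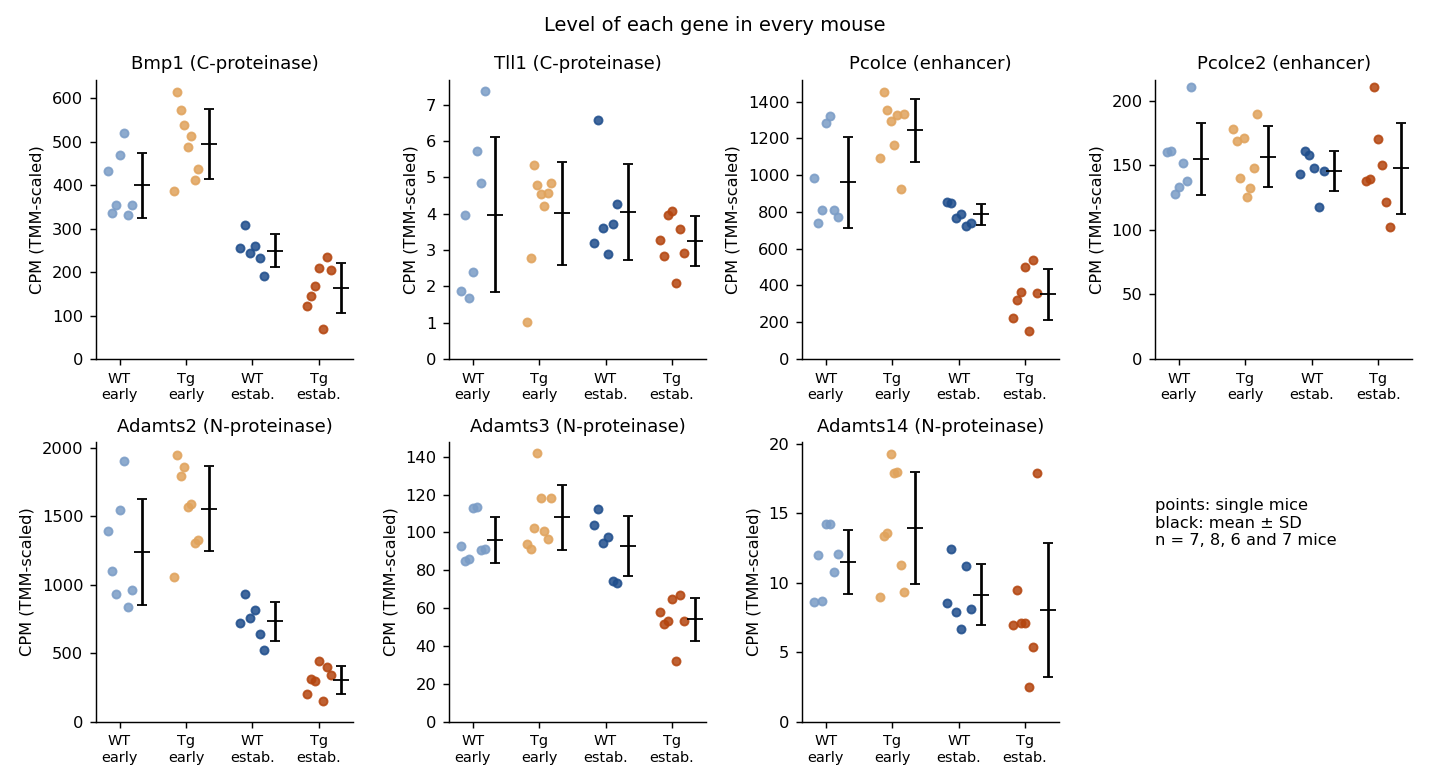
CPM of each of the 7 genes in every mouse (linear axis from 0, TMM-scaled over all 28 libraries), by genotype and cohort. Points are single mice and the black mark with bars is the group's mean ± SD (n = 7, 8, 6 and 7 mice from left to right); for Pcolce, Adamts2 and Adamts3 the 7 established Fosl2 Tg mice lie below all 6 established WT mice, whereas for Pcolce2 the 4 groups overlap.

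The first question was whether procollagen processing genes differ between Fosl2 Tg and WT tendon at each stage. In the established cohort, 3 of the 7 genes fell in Fosl2 Tg tendon and none rose, with FDR at most 0.05 by edgeR's quasi-likelihood test. They were the main N-proteinase Adamts2, the enhancer Pcolce and the N-proteinase Adamts3. Over all 15862 genes tested, 6.51% were called in either direction and 3.37% were called lower. For each of the 3 genes every Fosl2 Tg mouse lay below every WT mouse, which was so for 2.33% of all genes tested. The median log2 fold change over the 7 genes was -0.60, against 0.01 over all genes tested.

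In the early cohort, none of the 7 genes passed the test, by edgeR or by DESeq2, where 0.0396% of the 15138 genes tested passed with edgeR. All 7 estimates lay above 0, a sign shared by 47.3% of all genes tested, and their median log2 fold change was 0.28, against -0.01 over all genes. Those of Pcolce and Bmp1 had an unadjusted p under 0.05, as had 6.06% of all genes. With scaling by library totals alone the early estimates of Tll1 and Pcolce2 turned below 0.

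**Figure D2:**
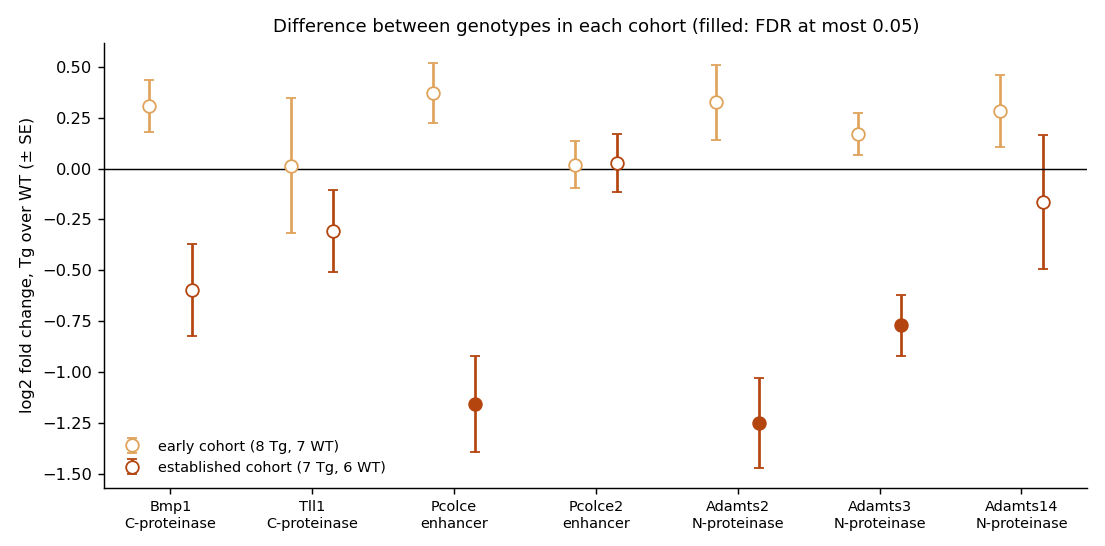
Log2 fold change of Fosl2 Tg over WT (vertical axis, ± SE) for each of the 7 genes in the early cohort (8 Fosl2 Tg and 7 WT mice) and in the established cohort (7 and 6 mice). Filled points have an FDR of at most 0.05; these are Pcolce, Adamts2 and Adamts3 in the established cohort, at -1.16, -1.25 and -0.77, and the early points all lie between 0.01 and 0.37.

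Bmp1, the C-proteinase gene with the higher level, was at 192 CPM in the lowest, 251 CPM in the median and 309 CPM in the highest of the 6 established WT mice. In the 7 established Fosl2 Tg mice it was at 68.4, 167 and 234 CPM. The groups overlapped, with 4 Fosl2 Tg mice below all WT mice. The log2 fold change of -0.60 ± 0.22 (SE) did not pass the test (FDR = 0.115), although it did when all 28 mice shared 1 fit (FDR = 0.0413). Early mice had Bmp1 at 332, 354 and 521 CPM in WT and at 385, 500.0 and 615 CPM in Fosl2 Tg mice (lowest, median and highest). That difference, 0.31 ± 0.13 on the log2 scale, did not pass the test either (FDR = 0.775). Counts per gene do not separate the splice forms of this gene, BMP-1 and the longer mammalian tolloid.

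Tll1, which encodes tolloid-like 1, was scarce in tendon. Its level ranged from 1.68 to 7.37 CPM in early WT, 1.02 to 5.34 CPM in early Fosl2 Tg, 2.90 to 6.59 CPM in established WT and 2.09 to 4.08 CPM in established Fosl2 Tg mice, resting on 11 to 238 counts per library. All 4 groups overlapped. The log2 fold change was 0.01 ± 0.33 (FDR = 0.998) in the early and -0.31 ± 0.20 (FDR = 0.339) in the established cohort.

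Pcolce, the enhancer of C-proteinase activity with the highest level of the set, was at 724 CPM in the lowest, 776 CPM in the median and 856 CPM in the highest established WT mouse. In established Fosl2 Tg mice it was at 150.0, 361 and 541 CPM. The WT mice lay close together (coefficient of variation 7.02%), the Fosl2 Tg mice were spread out (39.6%), and the groups did not overlap. Pcolce fell by 1.16 ± 0.24 on the log2 scale, a 2.23-fold decrease (FDR = 0.0189). In the early cohort it was at 738, 811 and 1323 CPM in WT mice and at 923, 1313 and 1454 CPM in Fosl2 Tg mice (lowest, median and highest). There the groups overlapped and the log2 fold change of 0.37 ± 0.15 did not pass the test (FDR = 0.767).

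Pcolce2, the second enhancer, which also binds C-propeptides, did not follow Pcolce. In established WT mice it was at 117, 147 and 161 CPM (lowest, median and highest), and in established Fosl2 Tg mice at 103, 139.7 and 211 CPM, the latter range enclosing the former. Its log2 fold change was 0.03 ± 0.14 (FDR = 0.921) in the established and 0.02 ± 0.11 (FDR = 0.983) in the early cohort. Early mice spanned 128 to 211 CPM in WT and 125 to 189.7 CPM in Fosl2 Tg tendon. This was the gene of the set with the most even level over the 4 groups, whose means lay between 145 and 157 CPM.

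Adamts2, the main N-proteinase gene here, was at 524 CPM in the lowest, 739.5 CPM in the median and 934 CPM in the highest established WT mouse. In established Fosl2 Tg mice it was at 152, 315 and 442 CPM, so the highest Fosl2 Tg mouse was below the lowest WT mouse. Adamts2 fell by 1.25 ± 0.22 on the log2 scale, a 2.37-fold decrease (FDR = 0.0128). Among early mice it was at 837, 1103 and 1902 CPM in WT mice and at 1061, 1581 and 1951 CPM in Fosl2 Tg mice. These groups overlapped, and the log2 fold change of 0.33 ± 0.18 did not pass the test (FDR = 0.843).

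Adamts3, the N-proteinase that also acts on VEGF-C, was at 73.6, 95.9 and 113 CPM in established WT mice (lowest, median and highest) and at 32.2, 53.0 and 66.8 CPM in established Fosl2 Tg mice. It fell by 0.77 ± 0.15 on the log2 scale, a 1.71-fold decrease without overlap of the groups (FDR = 0.0165). Early mice spanned 85.1 to 113 CPM in WT and 91.2 to 142 CPM in Fosl2 Tg mice (0.17 ± 0.10, FDR = 0.847). Its established Fosl2 Tg values stood below both early groups as well, which overlapped each other.

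Adamts14, the third N-proteinase, was low in all groups and uneven among established Fosl2 Tg mice. It was at 6.64, 8.32 and 12.4 CPM in established WT mice and at 2.52, 7.10 and 17.9 CPM in established Fosl2 Tg mice, where replicate 7 was the highest and replicate 5 the lowest. The log2 fold change of -0.16 ± 0.33 did not pass the test (FDR = 0.775), and its sign turned with scaling by library totals alone, among females alone and without replicates 1 and 5 of the Fosl2 Tg group. Early mice spanned 8.59 to 14.2 CPM in WT and 8.97 to 19.2 CPM in Fosl2 Tg tendon (0.28 ± 0.18, FDR = 0.849).

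Replicates 1 and 5 of the established Fosl2 Tg group stood apart. They had the lowest levels of Adamts2, Pcolce and Bmp1 and the lowest Col1a1 of all libraries (1867 and 989 CPM). Their libraries were also the shallowest of the established cohort (10750350 and 9664327 counts). They had the largest TMM scaling factors of all libraries (1.45 and 1.43), and the part of depth and scaling in their levels was not tested. Without both replicates, the log2 fold change was -1.03 for Adamts2, -0.91 for Pcolce and -0.68 for Adamts3. The count of genes called lower remained 3. Each of these 3 genes was called in all 13 fits that left out 1 mouse, with FDR of at most 0.0443. The same mice also had the lowest tendon fibroblast markers. Of the 7 markers fixed for this cell type, Scx and Tnmd fell in established Fosl2 Tg tendon (FDR = 0.0444 and 0.0386), and the summed level of the list ranged from 1754 to 27429.5 CPM in Fosl2 Tg and from 19288 to 34039 CPM in WT mice. Muscle markers, of which 0 of 8 passed the test, summed to between 45.6 and 6198 CPM in Fosl2 Tg and between 60.7 and 18432 CPM in WT mice. Macrophage markers, of which only Cd163 rose, summed to between 455 and 720.4 CPM in Fosl2 Tg and between 348 and 517 CPM in WT mice. Erythroid markers, of which 0 of 4 tested passed (Hbb-bs at 3.06, FDR = 0.0594, and Hba-a1 at 2.52, FDR = 0.0821), summed to between 10.2 and 126 CPM in Fosl2 Tg and between 8.94 and 20.1 CPM in WT mice, with replicates 1 and 5 at 46.6 and 49.3 CPM and replicate 4 the highest. None of the tendon, muscle, macrophage and erythroid markers was at 0 throughout a group, and keratinocyte markers summed to at most 3.81 CPM in any mouse, with Krt5 at 0 in all established WT mice. The part of these markers in the lower levels of Adamts2, Pcolce and Adamts3 was not tested, and in bulk tissue fewer cells of a type and less RNA per cell cannot be told apart.

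The next question was whether the difference between genotypes itself differed between the cohorts. In 1 fit of the 4 groups, 4 of the 7 genes had a more negative difference in the established cohort, namely Pcolce, Adamts2, Adamts3 and Bmp1, where 7.43% of 16082 genes were called in either direction and 4% as more negative. The change in log2 fold change was -1.53 ± 0.28 for Pcolce (FDR = 0.00399), -1.58 ± 0.30 for Adamts2 (FDR = 0.00399) and -0.94 ± 0.18 for Adamts3 (FDR = 0.00498). For Bmp1 it was -0.91 ± 0.26 (FDR = 0.0339). The Bmp1 call was lost without WT early replicate 2, 3 or 7, established WT replicate 1 or 2 or established Fosl2 Tg replicate 1, with FDR up to 0.062, and in the fit with a replicate block (FDR = 0.0542) and with scaling by library totals alone (FDR = 0.0825). Markers of other cells moved in this contrast as well. Of the erythroid markers, 4 of 5 had a more positive difference in the established cohort (Hba-a1 by 3.5, Hba-a2 by 4.95, Hbb-bs by 5.33 and Hbb-bt by 5.52 on the log2 scale, FDR between 0.00693 and 0.0226). So had 3 of 5 macrophage markers (Adgre1 by 0.97, Mrc1 by 1.00 and Cd163 by 1.44, FDR between 6.74e-05 and 0.0132) and Mbp among 5 Schwann cell markers (1.27, FDR = 0.0457). The tendon fibroblast markers Scx and Tnmd had a more negative one (-1.41, FDR = 0.0457, and -1.94, FDR = 0.0358). The part of these cells in the change of the procollagen processing genes was not tested. Tll1 (-0.32 ± 0.43, FDR = 0.671), Adamts14 (-0.45 ± 0.37, FDR = 0.463) and Pcolce2 (0.00 ± 0.19, FDR = 0.992) did not pass the test.

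Within each genotype, the cohorts were then set against each other. In WT tendon, Bmp1 and Adamts2 were lower in the established cohort (log2 fold change -0.68 ± 0.19, FDR = 0.0343, and -0.76 ± 0.22, FDR = 0.037), where 5.81% of genes were called and 3.48% called lower. The count of 2 dropped to 1 without WT early replicate 1, and to 0 without WT early replicate 4 or 5 or established WT replicate 1, 3, 4, 5 or 6. For Bmp1 the 6 established WT mice lay below all early WT mice (as for 1.22% of all genes), and for Adamts2 5 of the 6 did. Of the markers, 2 of 5 for macrophages and the 1 tested of the fixed cartilage and bone list were called lower. None of the 7 tendon fibroblast markers was called. Pcolce (-0.29 ± 0.20, FDR = 0.424), Adamts3 (-0.05 ± 0.13, FDR = 0.859), Adamts14 (-0.33 ± 0.27, FDR = 0.506), Pcolce2 (-0.09 ± 0.14, FDR = 0.736) and Tll1 (0.01 ± 0.31, FDR = 0.99) did not pass the test in WT mice.

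In Fosl2 Tg tendon, 5 of the 7 genes were lower in the established than in the early cohort, in a comparison where 47.8% of all genes were called and 22% called lower. Adamts2 differed most, from a mean of 1558 ± 309 CPM (SD, n = 8) to 307 ± 102 CPM (n = 7), a log2 fold change of -2.34 ± 0.21 (FDR = 1.88e-08). Pcolce differed by -1.82 ± 0.20 (FDR = 1.46e-07), Bmp1 by -1.59 ± 0.18 (FDR = 2.63e-07) and Adamts3 by -0.99 ± 0.13 (FDR = 1.12e-06). Of the 7 tendon fibroblast markers 6 were called lower in this comparison, and 4 of 5 erythroid markers higher. Of 5 macrophage markers 2 were called higher, and of 5 Schwann cell markers 3 higher and 1 lower. The 1 tested marker of the cartilage and bone list was called lower. For Adamts2, Pcolce, Bmp1 and Adamts3 every established mouse lay below every early one, as for 8.03% of all genes tested. Adamts14 differed by -0.78 ± 0.26 (FDR = 0.0143), with 5 of 7 established mice below all early mice. That call was lost without replicates 1 and 5 of the established Fosl2 Tg group (-0.57, FDR = 0.0624) and with scaling by library totals alone. Tll1 (-0.31 ± 0.29, FDR = 0.392) and Pcolce2 (-0.09 ± 0.13, FDR = 0.598) did not pass the test, and both estimates turned above 0 with scaling by library totals alone.

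The 7 genes were then set against their main substrate, type I procollagen, as the ratio of each gene's reads to those of Col1a1 in the same library, which needs no scaling between libraries. Col1a1 fell by 2.50 ± 0.63 on the log2 scale in established Fosl2 Tg tendon (FDR = 0.0356), from a median of 74327 CPM in WT to 10236.5 CPM in Fosl2 Tg mice. Each of the 7 ratios was higher in established Fosl2 Tg than in WT mice, without overlap for any gene. The share of all genes with such a ratio was not computed. Over all genes tested the median log2 fold change was 0.01, while Col1a1 fell by 2.50. A gene of unchanged level thus also has a higher ratio to Col1a1. The lack of overlap for all 7 genes therefore does not set them apart from other genes. All 7 ratios share the Col1a1 counts, so their tests are not independent of each other. Pcolce stood at a geometric mean of 11.1 reads per 1000 Col1a1 reads in WT and 41.3 in Fosl2 Tg mice, a 3.73-fold difference (two-sided exact permutation test, p = 0.00175, adjusted p = 0.00408 over 14 tests). Adamts2 stood at 10.2 and 36.9 reads per 1000 Col1a1 reads, a 3.63-fold difference, and Bmp1 at 3.47 and 19.5, a 5.61-fold difference (adjusted p = 0.00408 each by the exact permutation test). Pcolce2, whose own level did not pass the test, showed the largest ratio change of the 7, from 2.04 to 18.3 reads per 1000 Col1a1 reads, an 8.96-fold difference. Much of the size of these ratios came from replicates 1 and 5 of the Fosl2 Tg group, the mice with the least Col1a1. Without both, the difference was 2.32-fold for Pcolce, 2.19-fold for Adamts2, 3.41-fold for Bmp1 and 4.44-fold for Pcolce2, still without overlap for any of the 7 genes (adjusted p between 0.00505 and 0.00866, exact permutation test). The smallest p that the 1716 groupings of all mice allow is 0.000583. Without both mice, 462 groupings remain and the smallest p of the exact permutation test is 0.00216. All genes but Pcolce stood at that limit.

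The ratios show that Col1a1 reads fell further than those of any of the 7 genes, not that any of these genes rose. Col3a1, whose own difference did not pass the test (-0.23 ± 0.62, FDR = 0.84), was also taken as denominator in place of Col1a1. None of the 7 ratios then passed, and those of Bmp1, Pcolce, Adamts2 and Adamts3 lay below 0. Col3a1 was uneven between mice, with a coefficient of variation of 92.2% in established WT and 99.2% in established Fosl2 Tg mice. These tests therefore do not show that the ratios to Col3a1 were equal. In the early cohort all 7 ratios to Col1a1 were lower in Fosl2 Tg mice, by 0.23 to 0.61 on the log2 scale, and none passed (adjusted p between 0.168 and 0.288, exact permutation test).

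**Figure D3:**
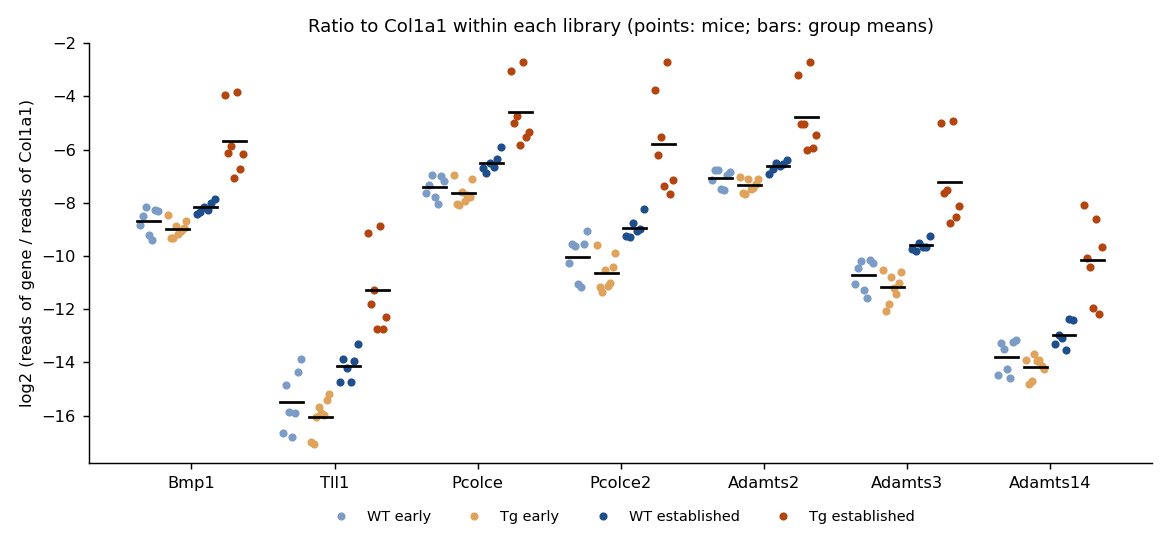
Log2 ratio of each gene's reads to Col1a1 reads within a library (vertical axis), for the 4 groups of mice. Points are mice and bars are group means; for each of the 7 genes the established Fosl2 Tg mice lie above the established WT mice, with replicates 1 and 5 the highest, and the early groups overlap.

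Within single groups, several of the genes varied between mice together with Col1a1. Pearson's r of log2 CPM was computed for each gene in each group of 6 to 8 mice, 28 relations in all, of which 23 were positive and 12 had an adjusted exact permutation p of at most 0.05 (5 by Spearman's rho). Both measures of a mouse share its library's scaling. The share of all genes that vary with Col1a1 in this way was not computed. These counts therefore do not set the procollagen processing genes apart from other genes. The highest r was that of Adamts2 in established Fosl2 Tg mice, where it followed Col1a1 with r = 0.992 and rho = 1.0 (adjusted exact permutation p = 0.00556 and 0.0111), and r = 0.987 without replicates 1 and 5, the 2 mice farthest from the median Col1a1. In early WT mice its r was 0.977 (rho = 0.964, adjusted exact permutation p = 0.00635 and 0.0259), in early Fosl2 Tg mice 0.927 (rho = 0.81, 0.00635 and 0.0833) and in established WT mice 0.925 (rho = 0.829, 0.0259 and 0.136). Without the 2 outermost mice these were 0.941, 0.804 and 0.587, so in established WT mice much of the relation rested on 2 of 6 mice.

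Bmp1 was also high where Col1a1 was high and had a higher r than Adamts2 in the other 3 groups, with r between 0.945 and 0.979 in the 4 groups (adjusted exact permutation p between 0.00635 and 0.0105) and between 0.857 and 0.938 without the 2 outermost mice. Its rho lay between 0.821 and 0.943, with adjusted exact permutation p between 0.0406 and 0.0956. Pcolce followed Col1a1 in early WT (r = 0.966, rho = 0.679, adjusted exact permutation p = 0.0197 and 0.215) and established Fosl2 Tg mice (r = 0.976, rho = 0.857, adjusted exact permutation p = 0.00635 and 0.0833), with 0.826 and 0.922 without the 2 outermost mice. In early Fosl2 Tg and established WT mice its r of 0.599 and 0.863 did not pass (rho = 0.643 and 0.886, adjusted exact permutation p of r 0.196 and 0.0568). Adamts3 followed Col1a1 in WT mice, with r = 0.921 in the early (rho = 0.786, adjusted exact permutation p = 0.0197 and 0.122) and 0.947 in the established cohort (rho = 1.0, 0.00635 and 0.0259). Without the 2 outermost mice these were 0.505 and 0.938. Its r of -0.0281 in early and 0.761 in established Fosl2 Tg mice did not pass (rho = -0.0476 and 0.643, adjusted exact permutation p of r 0.946 and 0.0726). For Pcolce2, r lay between -0.473 and 0.411 and passed in no group. Tll1 and Adamts14 passed in no group either, with r of at most 0.702 and 0.633. Summed markers of the cartilage and bone list also differed between early mice. Early WT replicates 4 and 5, with the most Col1a1, stood at 21.0 and 38.9 CPM, the others at 2.91 to 7.42 CPM. Early Fosl2 Tg replicates 2 to 6 stood at 16.2 to 38.5 CPM. Replicates 1, 7 and 8, with the least Col1a1, stood at 4.53 to 9.84 CPM. Established Fosl2 Tg replicate 4, with the most Col1a1 of its group, stood at 1.76 CPM. Replicates 6 and 7 of that group, next in Col1a1 (24855 and 14663 CPM), stood at 10.6 and 14.6 CPM. Its replicates 1, 2, 3 and 5, with the least Col1a1, stood at 1.59 to 2.28 CPM. The part of these markers was not tested.

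**Figure D4:**
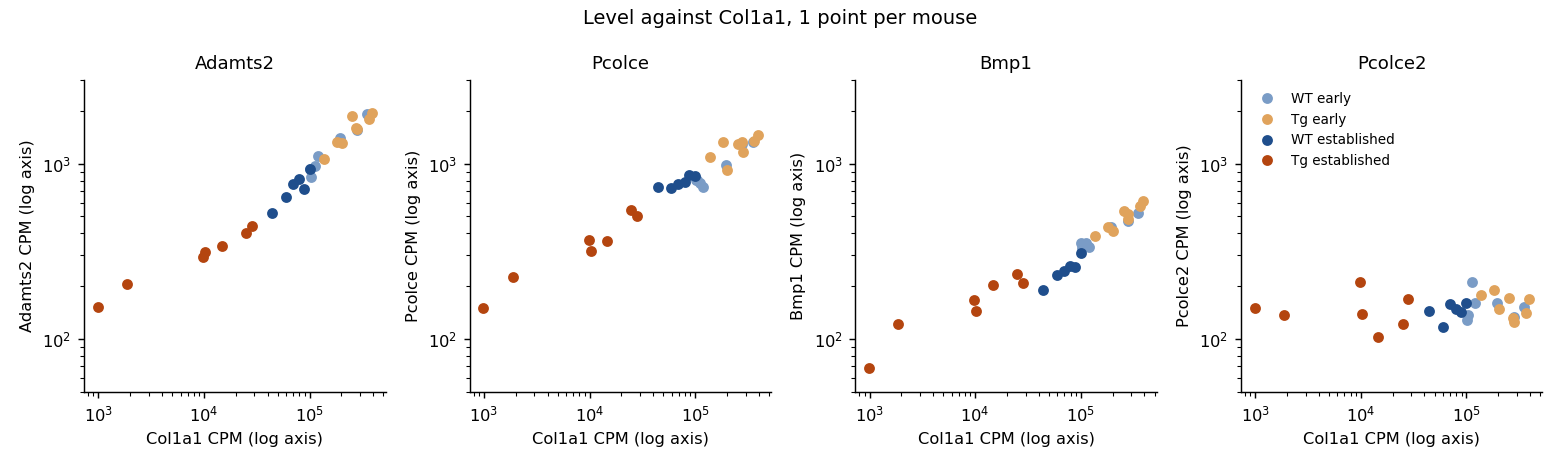
CPM of Adamts2, Pcolce, Bmp1 and Pcolce2 (vertical, log axis) against CPM of Col1a1 (horizontal, log axis), 1 point per mouse, coloured by genotype and cohort. Established Fosl2 Tg mice span 989 to 28248 CPM of Col1a1, and Adamts2, Pcolce and Bmp1 are lowest in the mice with least Col1a1, whereas Pcolce2 is not.

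The genes were also compared with each other and with all 13334 protein-coding genes of sufficient level by Pearson's r of log2 CPM over the 28 mice, after each group's mean was taken off. These values are descriptions, since all genes of a mouse share its library. They pool groups of unlike spread and were not computed without replicates 1 and 5 of the established Fosl2 Tg group. Those 2 mice had the lowest Bmp1, Pcolce and Adamts2. Bmp1, Pcolce and Adamts2 varied together (r = 0.927 for Bmp1 with Adamts2, 0.921 for Bmp1 with Pcolce and 0.87 for Pcolce with Adamts2), and Adamts3 with each of them at 0.704 to 0.735. Pcolce2 stood aside, between -0.337 and 0.164 with the other 6 genes. The genes most like Bmp1 were Glb1 (r = 0.963), which encodes a lysosomal beta-galactosidase, Col6a2 (0.96), a chain of type VI collagen, and Plod1 (0.958), a procollagen lysyl hydroxylase. Those most like Pcolce were Rcn3 (0.968), a calcium-binding protein of the endoplasmic reticulum, Clec11a (0.948) and Sema3b (0.944), and those most like Adamts2 were Sec31a (0.932), a coat protein of vesicles leaving the endoplasmic reticulum, Plod1 (0.932) and Slc38a10 (0.928). Likeness was looser for Adamts3 (Neo1 0.814, Bscl2 0.807, Lonrf2 0.795), Adamts14 (Hhat 0.837, Xylt1 0.804, Angptl2 0.802), Tll1 (Negr1 0.857, Nipal2 0.821, Tmeff2 0.815) and Pcolce2 (Cgnl1 0.843, Slc44a1 0.762, Rnf130 0.762).

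Finally, the partners and substrates of these proteinases were examined, 40 genes in lists by role, of which 36 were tested. In the established cohort 5 of the 36 passed the test, 4 lower and 1 higher in Fosl2 Tg tendon, where 6.51% of all genes were called and 3.37% called lower. All 4 that fell were fibrillar procollagen genes, Col1a1 and Col1a2 of type I (-2.50 ± 0.63, FDR = 0.0356, and -2.23 ± 0.57, FDR = 0.0367), Col2a1 of type II (-1.63 ± 0.35, FDR = 0.0207) and Col11a1 of type XI (-1.46 ± 0.41, FDR = 0.0483). The other 7 of the 11 fibrillar procollagen genes did not pass, and the median over the 11 was -0.98. This count was sensitive to single mice, since 2 of the 36 passed without Fosl2 Tg replicate 1, 2 or 3 or WT replicate 1, 2, 4, 5 or 6, and 3 without WT replicate 3.

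The gene that rose was Thbs1, which encodes thrombospondin 1, a matricellular protein. It was at 745 CPM in the lowest, 1083 CPM in the median and 1369.9 CPM in the highest established WT mouse and at 1248, 2299 and 3065 CPM in Fosl2 Tg mice, which overlapped. It rose by 1.11 ± 0.20 on the log2 scale (FDR = 0.0128), against -0.39 ± 0.31 (FDR = 0.885) in the early cohort, and this change between cohorts passed its test (1.49 ± 0.40, FDR = 0.0245). The other 9 tested genes among the activators, partners and inhibitors did not pass, among them Furin (-0.04 ± 0.10, FDR = 0.842), the convertase that activates these proteinases, and Fn1 (-0.13 ± 0.71, FDR = 0.926), which encodes fibronectin.

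None of the 13 other substrates of BMP1 and the tolloid proteinases passed in the established cohort, by edgeR, where 6 of them had an unadjusted p under 0.05, as had 26.6% of all genes tested. Ltbp1, a binding protein of latent TGF-beta, came closest (-0.79 ± 0.23, FDR = 0.0544), followed by Dcn (-0.54 ± 0.18, FDR = 0.0873), which encodes decorin. Vegfc and Reln, substrates of ADAMTS3 outside collagen, did not pass (0.23 ± 0.22, FDR = 0.533, and -1.05 ± 0.89, FDR = 0.466). In the early cohort 0 of the 36 genes passed by edgeR or DESeq2, with 3 at an unadjusted p under 0.05 (Col24a1, Col11a1 and Col5a2), as had 6.06% of all genes. All 11 fibrillar procollagen genes then had estimates above 0, as had 47.3% of all genes, with a median of 0.45, against 0.28 for the 7 processing genes.

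**Figure D5:**
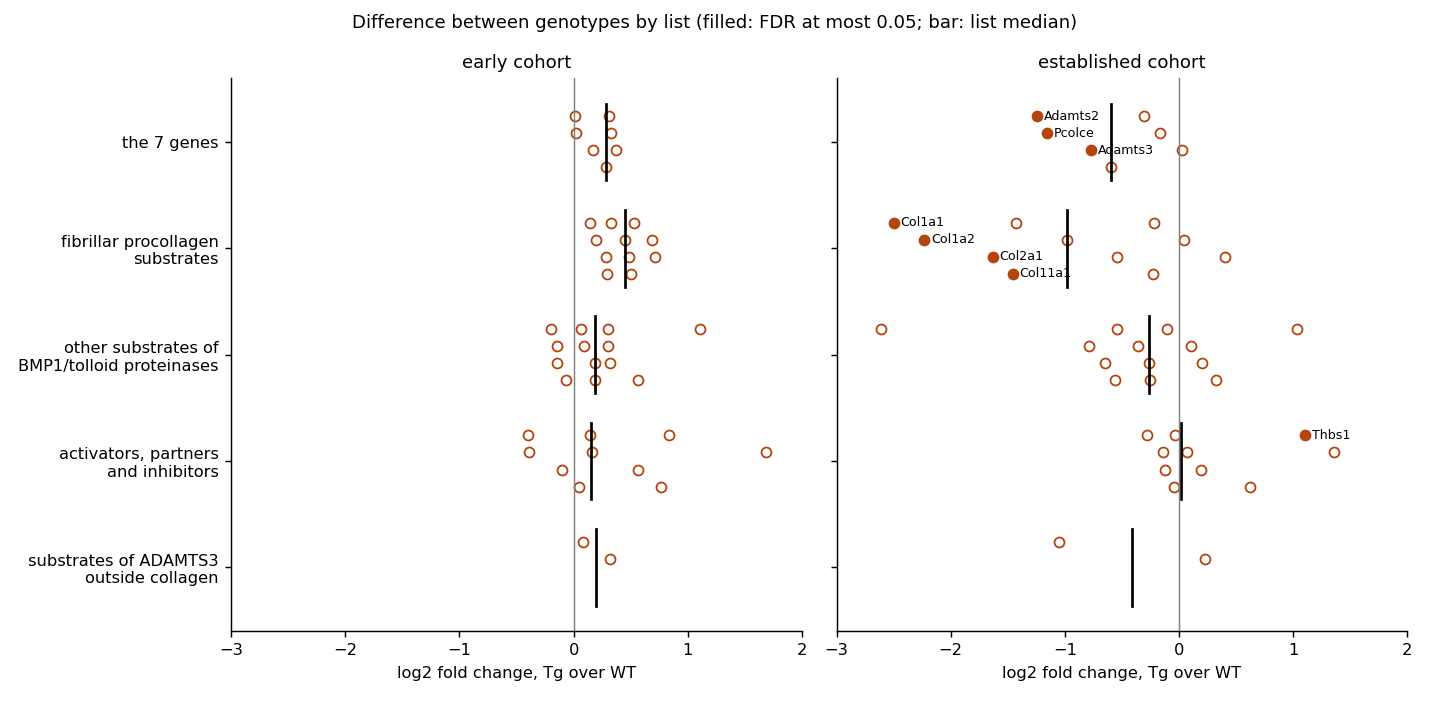
Log2 fold change of Fosl2 Tg over WT (horizontal axis) for the 7 processing genes and for the lists of their substrates and partners, 1 row per list, in the early (left) and established (right) cohort. Each point is a gene, filled and named where its FDR is at most 0.05, and the bar is the list median; in the established cohort the medians of the processing genes and of the fibrillar procollagens lie at -0.60 and -0.98, and in the early cohort at 0.28 and 0.45.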

How the data were processed

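RNA-sequencing libraries of rRNA-depleted total RNA from mouse tail tendon fascicles were made from 28 mice, 1 library each, in 4 groups by genotype and stage. Per the study's methods, STAR mapped the reads to GRCm39 (GENCODE release M26) and featureCounts assigned them to genes. The files the authors deposited hold raw, unscaled counts. Strand setting and the treatment of multiply mapped reads are not given in the sources used here. Of 25719 identifiers, 25505 were named with GENCODE release M39.

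Counts were scaled by TMM and tested with the quasi-likelihood test of edgeR 4.0.16 (R 4.3.3) after filterByExpr (minimum count 10, minimum total 15), within each cohort, and in 1 fit of all 28 mice for the contrasts between cohorts. Benjamini-Hochberg adjustment ran over all genes tested, and FDR of at most 0.05 was called. CPM per mouse were scaled over all 28 libraries together, so they can differ slightly from the within-cohort fits. Ratios to Col1a1 used a pseudocount of 0.5 on both counts and a two-sided exact permutation test over all groupings. Its code was checked against the permutation test of SciPy 1.17.1 on random numbers. Log2 CPM used a prior count of 2. Samples are separate mice. The deepest library held 66894396 and the shallowest 9645598 counts. Counting error is relatively largest for Tll1 and Adamts14, the genes with the fewest counts.

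Named were the 7 genes, the genes of the fixed lists that passed the test with Col1a1, and the 3 protein-coding genes most like each of the 7. Other genes of the lists (Furin, Fn1, Ltbp1, Dcn, Vegfc, Reln and those with a low unadjusted p) were chosen after their values were seen. The 7 genes and the lists were chosen with earlier results of these data known. Replicate numbers shared between genotypes were checked as pairs: in the early cohort all 7 pairs of mice deviated together (r of 0.129 to 0.363), and a fit with the replicate number as a block changed no early call of the 7 genes. Alternatives were DESeq2 1.42.0, other scalings and filters, a replicate block, sex as covariate, females alone, and leaving out each mouse. The tests were also run on simulated data. Promoter sequences are from RefSeq (GRCm38.p6), and Bmp1 has no entry there.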

Additional observations from a re-analysis of the deposited data

Results flagged for a closer look

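The difference between genotypes differed between the cohorts for 4 of the 7 genes by the interaction term of the fit of all 28 mice. The change in log2 fold change from the early to the established cohort was -1.53 for Pcolce, -1.58 for Adamts2, -0.943 for Adamts3 and -0.91 for Bmp1, the last with an FDR of 0.0339 that several single mice and the replicate block move past 0.05.

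A mouse stood far from the others of its group in 3 of the 28 combinations of gene and group, where chance gives about 1 in 20. For Adamts3 this was established Fosl2 Tg replicate 5, the male of that group, at 32.2 CPM, whose gap to the next mouse took 0.643 of the group's range on the log2 scale. For Pcolce2 it was established WT replicate 5, also the male of its group, at 117 CPM (0.626 of the range). For Tll1 it was early Fosl2 Tg replicate 1 at 1.02 CPM (0.599 of the range).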

How the results depend on the processing

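In the established cohort, Pcolce, Adamts2 and Adamts3 were called lower under all 11 alternatives and in all 13 fits that left out 1 mouse. Scaling by library totals alone shifted the median log2 fold change of all genes by 0.32 in the established and -0.18 in the early cohort, by 0.51 for the interaction, and by 0.22 (WT) and 0.73 (Fosl2 Tg) between cohorts. It also turned 534 lower and 498 higher calls of the established cohort into 308 and 7236. Relative to that median, Pcolce stood at -1.19, Adamts2 at -1.27 and Adamts3 at -0.78.

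Of the log2 fold changes, only estimates that had not passed the test changed sign under the alternatives run. With library totals alone these were Tll1 (-0.18 early, 0.0082 established, 0.19 interaction, 0.42 between Fosl2 Tg cohorts), Pcolce2 (-0.16 early, 0.13 between WT cohorts, 0.63 between Fosl2 Tg cohorts, the last with FDR = 0.000338), Adamts14 (0.16 established, 0.052 interaction) and Adamts3 (0.19 between WT cohorts). Pcolce2 also turned with the replicate block (-0.021 early), among females (-0.035 established) and for the interaction with DESeq2 (-0.0011), RLE scaling (-0.00096), no filter (-0.0051) and without the established males (-0.068). Adamts14 turned in the established cohort among females (0.057) and without Fosl2 Tg replicates 1 and 5 (0.051), an alternative chosen after seeing the data. With single mice left out, ranges that crossed 0 were -0.12 to 0.23 (Tll1 early), -0.19 to 0.24 (Tll1 between WT cohorts), -0.025 to 0.10 (Pcolce2 early), -0.077 to 0.097 (Pcolce2 established), -0.10 to 0.078 (Pcolce2 interaction), -0.14 to 1.1e-05 (Pcolce2 between WT cohorts) and -0.11 to 0.0076 (Adamts3 between WT cohorts). With Col3a1 as denominator, 0 ratios passed in place of 7, and 4 that had passed turned, those of Bmp1 (-0.21), Pcolce (-0.80), Adamts2 (-0.84) and Adamts3 (-0.32).

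Of the partner and substrate genes, 5 passed in the established cohort, 9 with DESeq2 or all mice in 1 fit, 12 with library totals alone, and 2 to 7 with single mice left out. Of the 7 genes, 2 passed between WT cohorts, 1 with library totals alone or the replicate block, and 0 to 2 with single mice left out. In the established cohort the replicate numbers were not taken as pairs, since only 4 of the 6 pairs had r over 0.1 (from -0.223 to 0.688, median 0.303), and the block changed no call of the 7 genes there. The causes of these changes were not tested.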
